A study of Mus musculus with 11 samples.

Results

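The homeostatic astrocyte genes examined here are 10 genes that healthy astrocytes use for glutamate uptake, water transport, gap junctions and metabolism. They were taken by name: Slc1a2, Slc1a3, Glul, Aqp4, Gja1, Gjb6, Aldoc, Aldh1l1, S100b and Ntsr2, each matched to 1 Ensembl gene among the 39017 genes of the count table. The KO mice were Camk2a-Cre;Dicer flox/flox, in which the Camk2a promoter drives Cre in excitatory neurons of the forebrain and removes Dicer, the enzyme that makes mature microRNAs. The control mice are given as control only, with no genotype. Bulk polyA RNA was sequenced from the neocortex of 3 KO and 3 control males, and from the hippocampal CA1 region of 2 KO males and of 2 control males and 1 control female, all 13 to 14 weeks old. The neocortex libraries were stranded and held spiked-in ERCC RNAs, synthetic standards, whereas the CA1 libraries were unstranded and held none, so tissue, kit and spike-in cannot be told apart. KO was therefore compared with control within each tissue.

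Astrocytes clear glutamate from synapses through the transporters encoded by Slc1a2 and Slc1a3 and turn it into glutamine with glutamine synthetase, the product of Glul. Their endfeet on blood vessels carry the water channel Aqp4, and the connexins Gja1 and Gjb6 join neighbouring astrocytes into a network through gap junctions. Astrocytes that react to damage raise Gfap and related genes, and these 10 genes are used to mark the non-reactive, supporting functions of the cell. Astrocytes are not among the cells in which the Camk2a promoter is known to drive Cre.

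The 11 libraries came from 7 mice, 4 of which gave both tissues. They held 43144097 to 58329441 gene counts in neocortex and 24806581 to 35684618 in CA1. Levels are given as CPM, the count scaled to the TMM-adjusted library size. Dicer1 stood at 59.0 to 63.3 CPM in KO neocortex, against 59.3 to 66.5 CPM in control neocortex, and at 71.6 to 73.3 CPM in KO CA1, against 68.7 to 75.2 CPM in control CA1. The count covers the whole gene and every cell of the tissue, so it does not check the labels. None of the neuron or excitatory neuron markers was at 0 in any library. All 10 astrocyte genes passed the filter on low counts in both tissues, with 1373 to 118983 counts in a library.

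RefSeq promoter windows of 300 bases, reaching from 250 bases before the start to 50 bases after it (build GRCm38.p6), were matched for 9 of the 10 genes, Aldoc with a pair of windows. Aqp4 was not matched. The windows of Slc1a2 (102706188 to 102706487) and Aldh1l1 (90550543 to 90550842) lie inside the genes. Their annotated gene starts, at 102658659 and 90486427, were not searched. Each window was searched on both strands for TTGGCA, a recognition word of the NFI factors, and for ACAAAG or ACAATG, core sites of SOX factors. Both factor families are known regulators of astrocyte genes, and the motif words do not overlap each other in these windows. TTGGCA lay in the first window of Aldoc, 146 bases before the start, and in the window of S100b, 19 bases before the start. It was present in 14.1% of all 32851 promoter windows. The SOX words were found in none of the 10 windows, against 28.6% of all windows. The windows of Aldoc and S100b are shown because they hold the motif, in capitals, and that of Gja1 as a window with no match. All are written along the gene's strand.

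Aldoc (chr11:78322823-78323122, plus strand): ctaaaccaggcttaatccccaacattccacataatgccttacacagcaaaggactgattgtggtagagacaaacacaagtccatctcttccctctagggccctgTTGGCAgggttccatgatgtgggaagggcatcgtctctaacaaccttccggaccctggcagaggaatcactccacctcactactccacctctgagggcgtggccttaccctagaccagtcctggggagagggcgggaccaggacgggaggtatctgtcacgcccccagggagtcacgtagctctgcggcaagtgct

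S100b (chr10:76253586-76253885, plus strand): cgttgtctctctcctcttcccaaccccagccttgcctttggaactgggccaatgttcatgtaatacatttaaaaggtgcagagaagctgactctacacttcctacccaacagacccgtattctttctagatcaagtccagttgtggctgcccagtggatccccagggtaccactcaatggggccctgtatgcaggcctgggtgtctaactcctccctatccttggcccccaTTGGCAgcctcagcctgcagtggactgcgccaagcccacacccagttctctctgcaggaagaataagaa

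Gja1 (chr10:56377050-56377349, plus strand): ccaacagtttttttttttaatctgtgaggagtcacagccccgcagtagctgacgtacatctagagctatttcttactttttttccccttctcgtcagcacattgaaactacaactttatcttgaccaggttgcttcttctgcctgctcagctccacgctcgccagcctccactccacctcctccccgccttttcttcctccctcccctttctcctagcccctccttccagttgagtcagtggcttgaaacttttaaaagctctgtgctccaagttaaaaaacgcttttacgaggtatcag

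Positions of the genes on GRCm38 (GENCODE) are as follows. Slc1a2 (ENSMUSG00000005089) lies on chromosome 2 at 102658659 to 102790784, plus strand, Slc1a3 (ENSMUSG00000005360) on chromosome 15 at 8634124 to 8710764, minus strand, and Glul (ENSMUSG00000026473) on chromosome 1 at 153899944 to 153909723, plus strand. Aqp4 (ENSMUSG00000024411) lies on chromosome 18 at 15389496 to 15410982, minus strand, Gja1 (ENSMUSG00000050953) on chromosome 10 at 56377330 to 56402513, plus strand, and Gjb6 (ENSMUSG00000040055) on chromosome 14 at 57123303 to 57133611, minus strand. Aldoc (ENSMUSG00000017390) is on chromosome 11 at 78322968 to 78327781, Aldh1l1 (ENSMUSG00000030088) on chromosome 6 at 90486427 to 90600203, S100b (ENSMUSG00000033208) on chromosome 10 at 76253853 to 76261159 and Ntsr2 (ENSMUSG00000020591) on chromosome 12 at 16653382 to 16660227, all on the plus strand. Gja1 and S100b share a chromosome, and the other 8 genes lie on 8 further chromosomes.

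The genes covered a wide range of levels. To compare genes, CPM were divided by the kilobases of merged exons inside the span that the count table gives for the gene. Glul was the highest of the 10 on this scale, with 616.5 ± 21.1 CPM per kb in KO neocortex and 608 ± 49.7 CPM per kb in control neocortex (SD, n = 3 each). Aldoc, which encodes the glycolytic enzyme aldolase C, followed with 427 ± 30.8 CPM per kb in KO neocortex and 415 ± 25.5 CPM per kb in control neocortex (SD, n = 3 each). The other 8 genes lay far lower, between 23.2 CPM per kb (Aqp4) and 86.8 CPM per kb (S100b) in KO neocortex, and between 19.8 CPM per kb (Aqp4) and 82.4 CPM per kb (S100b) in control neocortex. In control neocortex the order below Aldoc was S100b, Slc1a3, Slc1a2, Ntsr2, Gja1, Gjb6, Aldh1l1 and Aqp4. Within this order the library ranges of S100b and Slc1a3 overlapped, as did those of Ntsr2 and Gja1, of Gja1 and Gjb6, and of Gjb6 and Aldh1l1. Compared inside each control library, S100b lay above Slc1a3 in every one, only just in D5135 (74.6 against 74.17 CPM per kb), and Ntsr2 lay above Gja1 in every one. Gja1 lay below Gjb6 in D5134 alone (33.27 against 33.97 CPM per kb), and Gjb6 below Aldh1l1 in D5135 alone (25.1 against 25.2 CPM per kb). Differences between genes were not tested.

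In control CA1 the order was Glul at 457 ± 27.1, Aldoc at 336 ± 7.75, Slc1a3 at 74.1 ± 1.91, Slc1a2 at 63.2 ± 4.09, S100b at 62.7 ± 4.69, Gja1 at 37.3 ± 1.64, Ntsr2 at 37.1 ± 1.63, Gjb6 at 23.8 ± 6.66, Aqp4 at 21.3 ± 1.54 and Aldh1l1 at 15.9 ± 1.29 CPM per kb (SD, n = 3). Slc1a2 and S100b overlapped there, as did Gja1 and Ntsr2, and Gjb6 and Aqp4. KO CA1 kept Glul and Aldoc on top, at 470.8 ± 1.46 and 382.5 ± 1.04 CPM per kb (SD, n = 2), and Aldh1l1 lowest at 16.5 ± 0.798 CPM per kb. The level of Slc1a2 rests on 3906 of its 13133 exon bases, so its place in these orders depends on the counted span. That span (chromosome 2, 102658659 to 102781557) ends before the annotated 3′ end of the gene (GENCODE, 102790784). The same holds to a lesser degree for other genes. The spans hold 6438 of 10257 exon bases for Gja1, 2190 of 3263 for Aldoc, 3473 of 4516 for Aldh1l1 and 5562 of 6233 for Aqp4.

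**Figure D1:**
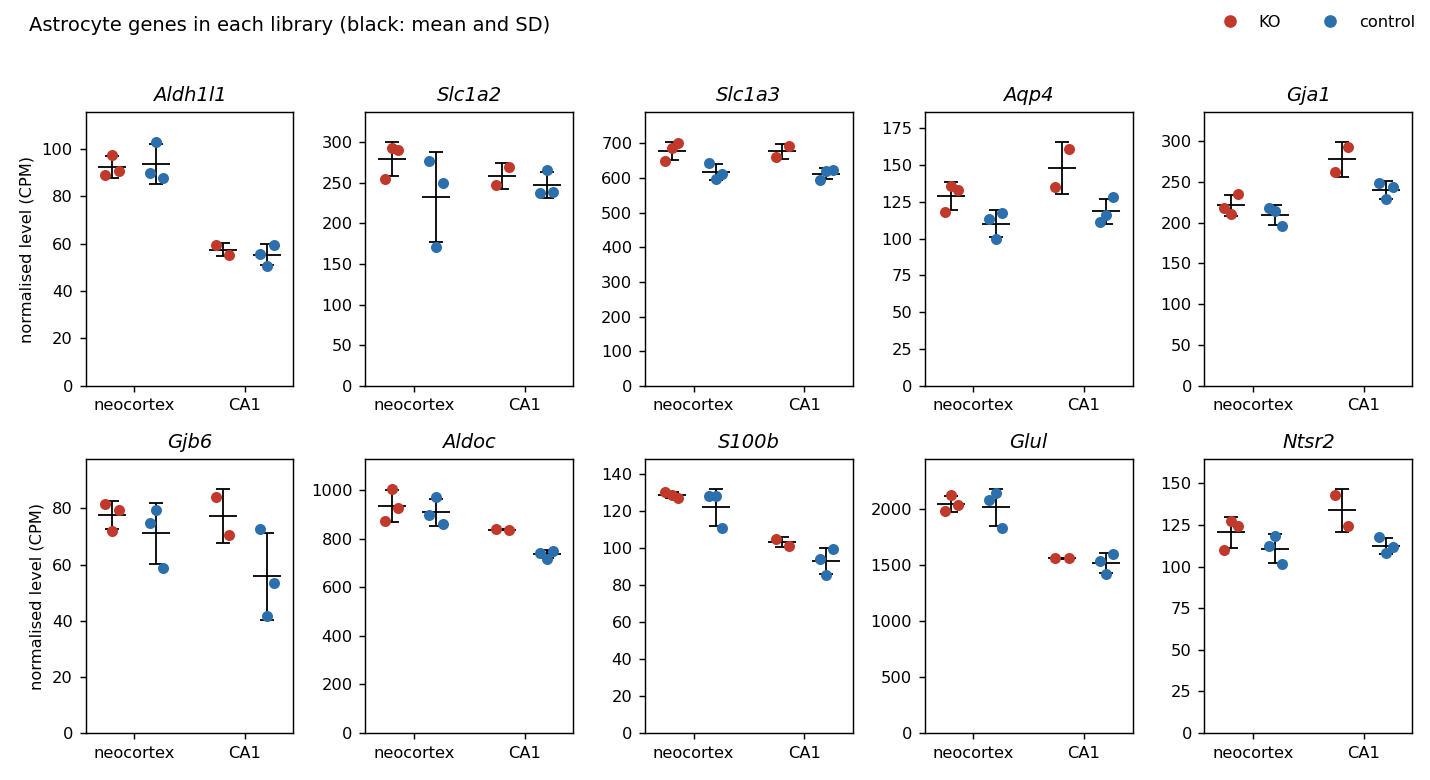
Normalised level in CPM (linear axis from 0) of each of the 10 genes, with 1 point per library, KO in red left of control in blue, for neocortex (3 KO, 3 control) and CA1 (2 KO, 3 control); black bars are the mean and SD. In CA1 the KO points lie above every control point for Aqp4, Aldoc, Ntsr2, Gja1, Slc1a3 and S100b, and in neocortex for Aqp4 and Slc1a3.

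In neocortex the astrocyte genes of KO mice stood close to those of control mice. None of the 10 genes passed an adjusted p of 0.05 in edgeR's quasi-likelihood test, with Benjamini-Hochberg adjustment over all 16971 genes tested, of which 1.51% rose and 1.20% fell. DESeq2 also called 0 of the 10, against 5.43% of all genes tested. At an unadjusted p under 0.05 there were 2 genes, Aqp4 and Slc1a3, against 18.0% of all genes tested. The log2 fold change was above 0 for 9 of the 10 genes, against 50.6% of all genes tested, and its median over the 10 was 0.10, against 0.00 over all genes. The p-values reflect the spread between single mice. In bulk tissue a change in the number of astrocytes and a change in RNA per astrocyte cannot be told apart. RNA of the same genes from other cells of the tissue is counted with them.

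Of the glutamate handling genes, Slc1a3 stood at 649.4, 686.8 and 699.9 CPM in the neocortex of KO mice D5130, D5132 and D5133, against 642.6, 596.5 and 612.2 CPM in that of control mice D5129, D5134 and D5135. All KO libraries lay above all control libraries, with D5130 only just above D5129. KO over control came to 0.14 in log2 with an SE of 0.05 (edgeR adjusted p = 0.17). The groups of 24.0% of all genes tested in neocortex did not overlap, and those of 2 of these 10 genes did not.

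Slc1a2 stood at 254.3, 292.7 and 290.1 CPM in KO neocortex (D5130, D5132, D5133), against 276.4, 170.5 and 249.2 CPM in control neocortex (D5129, D5134, D5135). The groups overlapped, and control D5134 lay far below the other 5 libraries. The log2 fold change was 0.27 (SE 0.19, 95% interval -0.23 to 0.76, edgeR adjusted p = 0.569) and was 0.09 without D5134. The ratio of Slc1a2 to Slc1a3 counts showed the same library standing apart: it was 0.392, 0.426 and 0.415 in KO neocortex, against 0.43, 0.286 and 0.407 in control neocortex. In the CA1 library of the same control mouse the ratio was 0.399, inside the range of 0.374 to 0.428 over the CA1 libraries. Glul stood at 1986 to 2125 CPM in KO neocortex and at 1833 to 2146 CPM in control neocortex, with a log2 fold change of 0.02 ± 0.06 (SE; adjusted p = 0.913 in edgeR).

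The water channel Aqp4 stood at 118.4, 135.9 and 132.8 CPM in KO neocortex (D5130, D5132, D5133), against 113, 99.7 and 117.7 CPM in control neocortex (D5129, D5134, D5135). The groups did not overlap, but KO D5130 and control D5135 lay next to each other. The log2 fold change was 0.23 with an SE of 0.07 (95% interval 0.07 to 0.38, edgeR adjusted p = 0.116). The span counted for Aqp4 starts at 15389394 and ends at 15403684, short of the annotated start of the gene.

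The gap junction genes overlapped between the groups. Gja1 averaged 221.1 ± 12.8 CPM in KO neocortex and 209.4 ± 12.1 CPM in control neocortex (SD, n = 3 each), with a log2 fold change of 0.08 (edgeR adjusted p = 0.544). Gjb6 averaged 77.7 ± 5.0 CPM in KO neocortex and 71.1 ± 10.9 CPM in control neocortex, with a log2 fold change of 0.13 (edgeR adjusted p = 0.591). Control D5135 was the lowest library for both genes, at 195.6 CPM for Gja1 and 58.8 CPM for Gjb6.

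Of the metabolic and other genes, Ntsr2, which encodes a neurotensin receptor found on astrocytes, had a log2 fold change of 0.12 ± 0.07 (SE; adjusted p = 0.412 in edgeR) with overlapping groups. S100b, a calcium-binding protein, averaged 128.9 ± 1.72 CPM in KO neocortex and 122.2 ± 9.98 CPM in control neocortex, with a log2 fold change of 0.08. Aldoc had a log2 fold change of 0.04 (95% interval -0.09 to 0.17). Aldh1l1, an enzyme of folate metabolism and a marker of all astrocytes, was the only gene of the 10 on the other side of 0, at 92.4 ± 4.46 CPM in KO neocortex and 93.5 ± 8.41 CPM in control neocortex, with a log2 fold change of -0.02 (95% interval -0.17 to 0.13).

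In CA1 Aqp4 rose, and 6 of the 10 genes, Aqp4 included, had both KO libraries above all control libraries. Aqp4 was 1 of 10 genes past an adjusted p of 0.05 in edgeR's quasi-likelihood test over all 18274 genes tested, of which 2.47% rose and 1.41% fell. At an unadjusted p under 0.05 there were 5 of the 10, against 17.3% of all genes tested. All 10 log2 fold changes were above 0, against 49.9% of all genes tested, and their median was 0.17, against 0.00 over all genes. Without D5133 9 of the 10 were above 0, and without D5135 8 were. CA1 has only 2 KO libraries, so each fit without D5130 or D5133 sets 1 KO library against the controls, takes its spread from the controls alone and assumes that the lone library varies like them. Calls kept or lost in these fits carry that limit throughout. The groups of 33.7% of all genes tested did not overlap, KO above or below, and 6 of these 10 were among them.

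Aqp4 stood at 135.4 and 160.7 CPM in the CA1 of KO mice D5130 and D5133, against 111.4, 116 and 128 CPM in that of control mice D5134, D5135 and D5138. KO D5133 lay highest, and KO D5130 lay closer to control D5138, the female, than to the other KO library. The log2 fold change was 0.32 with an SE of 0.08 (95% interval 0.15 to 0.50, edgeR adjusted p = 0.0454). The call did not hold without D5133 (0.19, adjusted p = 0.349), D5134 (adjusted p = 0.104), D5135 (adjusted p = 0.103) or D5138 (adjusted p = 0.0612), or with all 11 libraries in 1 fit (adjusted p = 0.067), and it held without D5130 (adjusted p = 0.0204). In DESeq2 the adjusted p was 0.0109, and 3 of the 10 genes were called, Aldoc, Aqp4 and Ntsr2, against 5.06% of all genes tested.

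Of the other glutamate handling genes in CA1, Slc1a3 stood at 660.4 and 692.2 CPM in KO mice (D5130, D5133), against 593.7, 619.9 and 622 CPM in control mice (D5134, D5135, D5138). The groups did not overlap, and the log2 fold change of 0.14 ± 0.05 (SE; adjusted p = 0.153 in edgeR) had nearly the size of that in neocortex. Slc1a2 stood at 247.1 and 269 CPM in KO CA1, against 237.2, 265.3 and 238.3 CPM in control CA1, and the groups overlapped, with a log2 fold change of 0.06 (edgeR adjusted p = 0.695). Glul stood at 1561 and 1568 CPM in KO CA1, against 1540, 1420 and 1597 CPM in control CA1. Both KO libraries of Glul fell inside the range of the controls, with a log2 fold change of 0.04 (95% interval -0.08 to 0.16).

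Of the gap junction genes in CA1, Gja1 stood at 262.6 and 293.1 CPM in KO mice (D5130, D5133), against 248.8, 228.4 and 243.1 CPM in control mice (D5134, D5135, D5138). The groups did not overlap, with a log2 fold change of 0.21 ± 0.06 (SE; adjusted p = 0.0846 in edgeR). Gjb6 stood at 84.2 and 70.5 CPM in KO CA1, against 72.6, 41.7 and 53.3 CPM in control CA1. Its controls were spread the widest of the 10 genes, and D5134 lay above KO D5133. The log2 fold change of 0.47 was the largest of the 10 and had an SE of 0.28 (95% interval -0.34 to 1.29, edgeR adjusted p = 0.524). Without D5134 it was 0.70 (adjusted p = 0.0122), and this was then the only call among the 10.

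Aldoc stood at 839.2 and 836 CPM in KO CA1 (D5130, D5133), against 742.2, 717.2 and 749.6 CPM in control CA1 (D5134, D5135, D5138). The groups lay apart by more than the range within either, with a log2 fold change of 0.19 ± 0.05 (SE; adjusted p = 0.0527 in edgeR), and DESeq2 called it at an adjusted p of 0.0273. Ntsr2 stood at 143 and 124.6 CPM in KO CA1, against 117.7, 107.9 and 111.6 CPM in control CA1, with a log2 fold change of 0.25 ± 0.07 (SE; adjusted p = 0.0678 in edgeR). S100b had a log2 fold change of 0.15 with an interval that reached 0 (edgeR adjusted p = 0.302) and groups that did not overlap. Aldh1l1 overlapped, at 57.4 ± 2.77 CPM in KO CA1 (SD, n = 2) and 55.3 ± 4.48 CPM in control CA1 (SD, n = 3).

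The CA1 libraries were unstranded, so reads of genes on the opposite strand cannot be told apart where exons overlap. Whether counting used strand is not given, so the same limit may hold for the neocortex counts. Of the 10 genes, Aldh1l1 shares 499 exon bases with the antisense gene Gm15756, Slc1a2 shares 189 with Gm13872 and Glul shares 116 with Teddm2. On the same strand, Aldh1l1 shares 105 exon bases with Gm45901 and Glul shares 93 with Mir8114. Aqp4, Aldoc, Ntsr2, Gja1, Gjb6 and Slc1a3 share none with a gene of the other strand in the annotation used, and S100b lies inside the span of Dip2a with 0 shared exon bases.

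**Figure D2:**
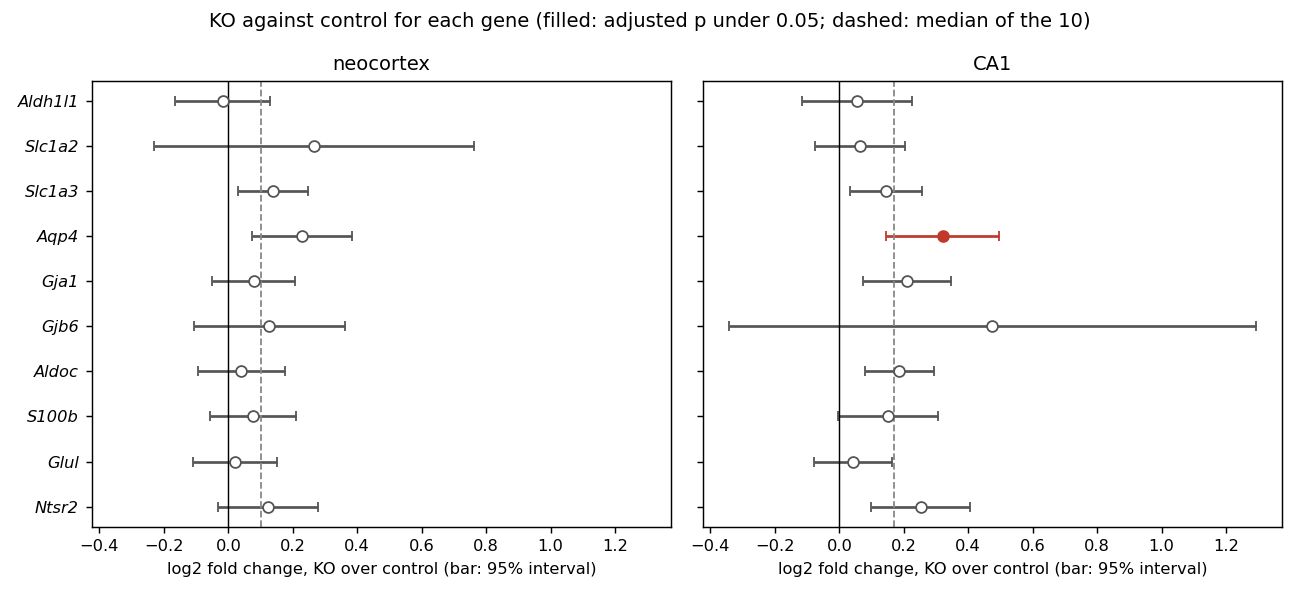
Log2 fold change of KO over control with its 95% interval for each gene in neocortex and in CA1, with the median of the 10 as a dashed line at 0.10 in neocortex and 0.17 in CA1. The 1 filled point, Aqp4 in CA1 at 0.32, passed an adjusted p of 0.05.

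Whether the difference between KO and control itself differed between tissues was tested in 1 model over all 11 libraries. None of the 10 genes passed edgeR's adjusted p of 0.05 for this interaction, against 0.0935% of the 19256 genes tested, and 0 had an unadjusted p under 0.05, against 9.51% of genes tested. The differences, CA1 effect minus neocortex effect, ran between -0.20 for Slc1a2 (SE 0.24) and 0.35 for Gjb6 (SE 0.30). The smallest p was that of Aldoc, with a difference of 0.15 (95% interval -0.03 to 0.32, edgeR adjusted p = 0.631). With the mouse as a block, which leaves the 4 mice that gave both tissues, 0 of the 10 were called, against 0.861% of the 18813 genes tested, and 2 of the 10 had an unadjusted p under 0.05, against 12.6%. The call of Aqp4 in CA1 and its absence in neocortex therefore do not show a difference between tissues.

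Seen by library, control D5135 was the lowest of its tissue for 7 of the 10 genes in neocortex and for 7 in CA1, and control D5134 was the lowest for the other 3 in each tissue. No KO library was the lowest for any of the 10. The median distance from the control mean over the 10 genes, on the log2 CPM scale, was 0.07, 0.11 and 0.17 in KO neocortex (D5130, D5132, D5133), against 0.05, 0.08 and -0.09 in control neocortex (D5129, D5134, D5135). In CA1 it was 0.16 and 0.16 in KO mice D5130 and D5133, against 0.02, -0.06 and 0.02 in control mice D5134, D5135 and D5138. In neocortex the median of the KO mouse D5130 thus lay below that of control D5134, and in CA1 both KO medians lay above all control medians. Without D5135 the median log2 fold change of the 10 genes in neocortex was 0.02. As 4 of the mice gave both tissues, the tissues are not independent of each other.

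**Figure D3:**
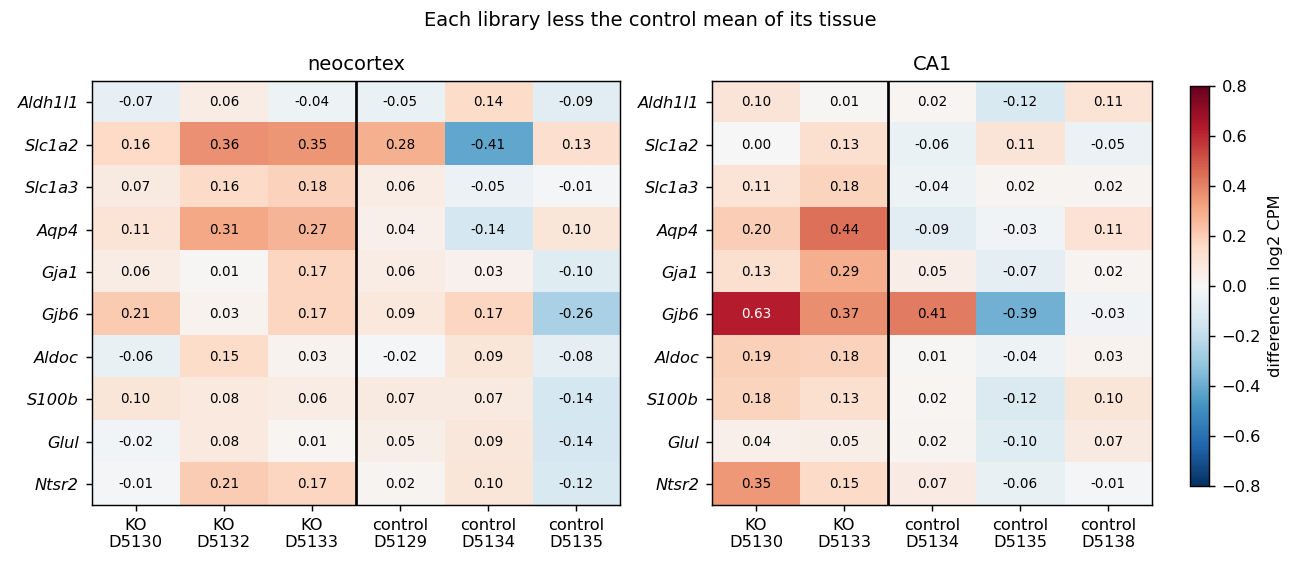
Difference in log2 CPM between each library and the control mean of its tissue for the 10 genes, with KO libraries left of the black line and control libraries right of it (red above, blue below the control mean). Slc1a2 in neocortex control D5134 stands at -0.41, and Gjb6 in CA1 ranges from 0.63 in KO D5130 to -0.39 in control D5135.

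The neocortex libraries were split into 2 sets by clustering the profiles of their ERCC RNAs. The first held KO D5130 and D5132 and control D5129, the second KO D5133 and controls D5134 and D5135. The clustering was set to return 2 sets, so the split does not show that 2 sets exist, and how far they lie apart was not measured. The labels name no such batch. The median log2 fold change of the 10 genes was 0.04 within the first set and 0.20 within the second, with 7 of 10 and 9 of 10 values above 0 and 0 of 10 called in either, against 0.0627% and 0.442% of all genes tested. Control D5129 is the only control of the first set and KO D5133 the only KO library of the second, so these fits take their spread from the other group alone. Aqp4 had 0.17 and 0.29 in these sets, Slc1a3 had 0.06 and 0.22, and Slc1a2 had -0.02 and 0.47. With the set as a term in the model, the median was 0.10 and 0 of 10 were called, against 1.13% of all genes tested. ERCC RNAs took 0.113% to 0.268% of the counts in KO neocortex, against 0.189% to 0.686% in control neocortex, and scaling to them moved the median of all genes to 1.06 and that of the 10 genes to 1.14. All changes in the text are relative to the other genes of a library and not to the ERCC RNAs.

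The 10 genes did not vary as 1 block. After the mean of each tissue was removed, the correlation of log2 CPM between pairs of genes over the 11 libraries had a median of 0.587 over 45 pairs, from -0.552 for Aldh1l1 and Slc1a2 to 0.923 for Slc1a3 and Aqp4. Aldh1l1 and Glul (0.819), S100b and Glul (0.828) and Aldoc and Ntsr2 (0.877) were other close pairs, whereas Slc1a2 was near 0 with Aldoc (-0.05), S100b (-0.03) and Ntsr2 (0.09). These values describe 11 libraries that share mice, groups and scaling, and most libraries come in pairs from 1 mouse. Of 10871 other genes averaging 5 CPM or more in both tissues, the 8 most like the average of the 10 were Myh7b, Resp18, Ggcx, Hcls1, Ascc2, Unk, Itih3 and Phkg1, with Pearson's r between 0.933 and 0.951. These r are a description of 11 libraries and were not tested.

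Other astrocyte genes were then taken from 6 lists of amino acid handling, endfoot and potassium channels, metabolism, receptors, transcription factors and synapse factors. In neocortex 1 of the 72 tested rose and 0 fell, against 1.51% and 1.20% of all genes tested, so the 1 call is near the share over all genes. At an unadjusted p under 0.05 there were 11 of the 72, against 18.0%. A log2 fold change above 0 was found for 58, against 50.6%, and the median was 0.09, against 0.00 over all genes. The 1 gene was Sparc, a secreted matrix protein that acts on synapses, at 199.3 ± 8.83 CPM in KO neocortex and 166.5 ± 7.73 CPM in control neocortex (SD, n = 3 each), with a log2 fold change of 0.26 ± 0.05 (SE; adjusted p = 0.0282 in edgeR). Among the fits with 1 library left out, that call held without D5134 and was lost without any of D5129, D5130, D5132, D5133 and D5135, with an adjusted p of up to 0.198. It was also lost with all 11 libraries in 1 fit (adjusted p = 0.103) and with the ERCC set as a term (adjusted p = 0.0594). Apoe, the main lipid carrier of the brain, had a log2 fold change of 0.27 (edgeR adjusted p = 0.0508), Clu, which encodes the chaperone clusterin, had 0.23 (adjusted p = 0.0573) and the sodium pump subunit Atp1b2 had 0.19 (adjusted p = 0.0668), and DESeq2 called all of these, with adjusted p of 0.00637, 0.0121 and 0.0211. KO libraries of these 3 genes lay above all control libraries, as did those of Ttyh1 (0.14) and Sparcl1 (0.13), while those of Grm3 (0.16) and Id4 (0.18) overlapped the controls. The groups of 24.0% of all genes tested in neocortex did not overlap. These genes were named for the smallest p in their lists, which favours groups that lie apart.

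In CA1 10 of the 72 rose and 0 fell, against 2.47% and 1.41% of all genes tested. At an unadjusted p under 0.05 there were 24 of the 72, against 17.3%. A log2 fold change above 0 was found for 50, against 49.9%, and the median was 0.11. Apoe averaged 1684 ± 90.5 CPM in KO CA1 (SD, n = 2) and 1175 ± 42.0 CPM in control CA1 (SD, n = 3), with a log2 fold change of 0.52 ± 0.05 (SE; adjusted p = 0.000157 in edgeR). Slc7a11, the cystine and glutamate exchanger, rose by 0.73 (adjusted p = 0.000689) and the integrin subunit Itgb5 by 0.55 (adjusted p = 0.00169), and these 3 calls held whichever library was left out. The others were Agt, the angiotensin precursor (0.88), Sparc (0.62), Fxyd1, a regulator of the sodium pump (0.57), Slc25a18, a mitochondrial glutamate carrier (0.34), Nfia, a transcription factor (0.30), Clu (0.27) and the endfoot protein Mlc1 (0.24). These 7 lost their calls when some libraries were left out: Clu without D5138, Fxyd1 without D5133, Slc25a18 without D5130, D5133 or D5138, Agt and Sparc without D5130, D5133 or D5135, Nfia without D5130, D5133, D5135 or D5138, and Mlc1 whichever was left out. The potassium channel gene Kcnj16 had 0.44 (adjusted p = 0.054 in edgeR, 0.0201 in DESeq2). The lists without D5130 held 5 calls, without D5133 4, without D5138 6, without D5135 7, and without D5134 12 that rose and 1 that fell. Fxyd1, Sparc, Apoe, Slc7a11 and Itgb5 are also made by other cell types of brain, vessels or meninges. Their rise in bulk tissue cannot be assigned to astrocytes.

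The relatives of the gap junction and transporter genes were read in the same fits. There 1.51% of all genes tested rose and 1.20% fell in neocortex, and 2.47% rose and 1.41% fell in CA1. In neocortex 18.0% of all genes tested had an unadjusted p under 0.05. Of 7 other connexins read in neocortex none was called by edgeR or by DESeq2, and 0 had an unadjusted p under 0.05. They ran from -0.63 for Gja5, an endothelial connexin at under 1 CPM, through Gjb2 (-0.18), Gja4 (-0.16), Gjc1 (-0.16) and Gjb1 (-0.04), to Gjc3 (0.11) and the neuronal connexin Gjd2 (0.17). In CA1 Gjc3, a connexin of the oligodendrocyte lineage, fell. It averaged 40.7 ± 1.75 CPM in KO CA1 and 55.5 ± 3.27 CPM in control CA1, with a log2 fold change of -0.45 (edgeR adjusted p = 0.00597). Gjb1, of the same cells, had -0.37 (adjusted p = 0.218), Gjd2 had -0.10, Gja4 0.30, Gjc1 0.36, Gja5 0.76 and Gjb2, which astrocytes and meninges express, 0.81 (adjusted p = 0.179). The call of Gjc3 was lost without D5130 or D5138.

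Of 6 other glutamate transporters in neocortex none was called by edgeR or DESeq2 and 1 had an unadjusted p under 0.05, the vesicular transporter Slc17a7 of excitatory neurons, with a log2 fold change of -0.14 (adjusted p = 0.145). The others lay between -0.06 for Slc1a6 and 0.09 for Slc1a1, with Slc17a6 at -0.06, Slc1a4 at 0.07 and Slc1a5 at 0.08. In CA1 the vesicular transporter Slc17a6 fell, at 28.3 ± 1.86 CPM in KO CA1 and 50.3 ± 9.01 CPM in control CA1, with a log2 fold change of -0.83 (edgeR adjusted p = 0.00714). The neutral amino acid transporter Slc1a5 rose by 1.10 (adjusted p = 0.0217), at 4.33 ± 1.08 CPM in KO CA1 and 2.02 ± 0.45 CPM in control CA1. Both calls were lost without D5133, that of Slc17a6 also without D5130 and that of Slc1a5 also without D5135 or D5138. Slc17a7 (-0.02), Slc1a1 (-0.03), Slc1a6 (0.02) and Slc1a4 (0.08) had no call. Of all genes tested 18.0% had an unadjusted p under 0.05 in neocortex, and in CA1 2.47% rose and 1.41% fell.

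Reactive astrocyte genes were read beside the 10, with 1.51% of all genes tested risen in neocortex and 2.47% in CA1. In neocortex 1 of 21 tested rose, C4b, a complement component, at 17.7 ± 3.11 CPM in KO neocortex and 7.74 ± 1.74 CPM in control neocortex (SD, n = 3 each), with a log2 fold change of 1.19 (edgeR adjusted p = 0.0119), lost without D5129 or D5133. Gfap, the filament protein of reactive astrocytes, had 0.99 (adjusted p = 0.062), with 220.9 ± 43.7 CPM in KO neocortex and 111 ± 15.6 CPM in control neocortex. At nearly the same size Gfap was called by DESeq2 (adjusted p = 8.52e-05) and with all 11 libraries in 1 fit (adjusted p = 0.0173). It was also called with the ERCC set as a term (1.09, adjusted p = 0.022), without D5130 (1.14, adjusted p = 0.00535) and within the second ERCC set (1.14, adjusted p = 5.12e-07), so whether it passes depends on the fit. The list summed to 440.7 to 548.8 CPM in KO neocortex, against 348.9 to 386.7 CPM in control neocortex. In CA1 it summed to 1128 to 1263 CPM in KO, against 719.8 to 764.4 CPM in control. Gfap is a large part of these sums, so they do not measure the other genes of the list. In CA1 9 of 23 rose and 0 fell, with a median of 0.70, and between 3 and 10 rose when 1 library was left out. Gfap averaged 710.3 ± 81.8 CPM in KO CA1 (SD, n = 2) and 364.4 ± 20.8 CPM in control CA1 (SD, n = 3), with a log2 fold change of 0.96 (edgeR adjusted p = 1.39e-05). C4b rose by 1.53 and Aspg of the same list by 1.63, and these 3 calls held without any 1 library. In the same libraries the log2 fold change of Aqp4 was 0.32 and that of the other 9 genes was between 0.04 and 0.47. No test of the difference between the lists was made.

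**Figure D4:**
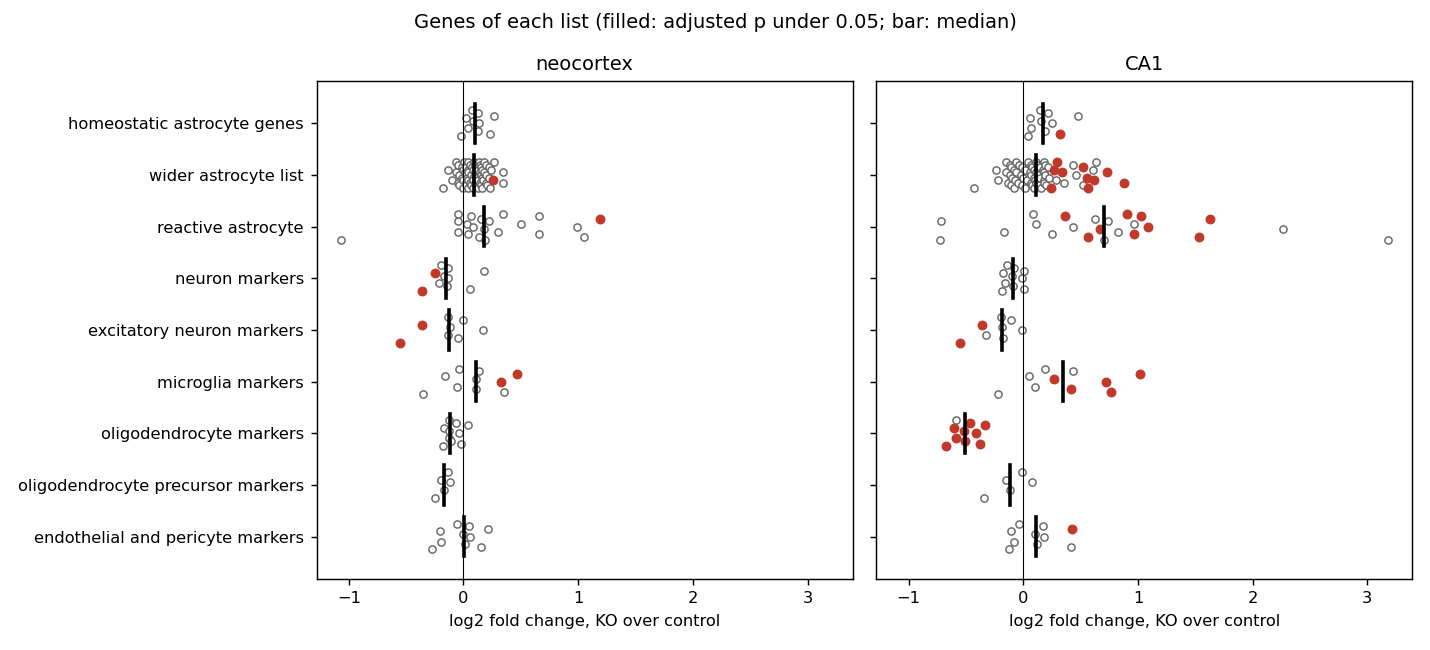
Log2 fold change of KO over control for the genes of 9 lists in neocortex and CA1, 1 point per tested gene, filled where the adjusted p was under 0.05, with the median of each list as a bar. The medians of the 10 homeostatic genes are 0.10 and 0.17, those of the reactive astrocyte genes 0.18 and 0.70, and 9 of 10 oligodendrocyte markers fell in CA1.

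Markers of other cell types moved in the same libraries, and their part in the astrocyte values was not tested. Of all genes tested 1.51% rose and 1.20% fell in neocortex, and 2.47% rose and 1.41% fell in CA1. The 10 neuron markers summed to 7149 to 7662 CPM in KO neocortex, against 7514 to 7932 CPM in control neocortex, and to 6750 to 6872 CPM in KO CA1, against 7152 to 7310 CPM in control CA1. In neocortex 2 of 10 fell, Uchl1 (-0.36, edgeR adjusted p = 0.00602) and Stmn2 (-0.25), and DESeq2 called 4 fallen and 1 risen. There 2 of the 10 were above 0, the highest at 0.18. In CA1 0 of 10 fell in edgeR and 1 in DESeq2, with 4 at an unadjusted p under 0.05. Of 8 excitatory neuron markers 2 fell in each tissue: Itpka (-0.55) and Nrgn (-0.37) in neocortex, and Neurod6 (-0.56) and Itpka (-0.36) in CA1. In neocortex DESeq2 called 2 of the 8 fallen and 1 risen, and 1 was above 0 in edgeR, at 0.17. In CA1 DESeq2 called 3 of the 8 fallen, and 0 were above 0. These 8 summed to 4929 to 5044 CPM in KO neocortex, against 5669 to 5744 CPM in control neocortex, and to 4717 to 5172 CPM in KO CA1, against 5271 to 5936 CPM in control CA1. Under scaling to the ERCC RNAs, where the median gene stood at 1.06, the neocortex values of Uchl1, Stmn2, Itpka and Nrgn were 0.65, 0.78, 0.49 and 0.63, above 0 but below that median.

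The call of Itpka in neocortex held whichever library was left out, that of Uchl1 was lost without D5133, that of Nrgn without D5132 or D5133 and that of Stmn2 without D5129, D5130, D5132, D5133 or D5134. The call of Stmn2 was also lost with the ERCC set as a term (-0.24, adjusted p = 0.0928) and that of Nrgn with all 11 libraries in 1 fit (adjusted p = 0.0519). In CA1 the call of Neurod6 held and that of Itpka was lost without D5133.

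Microglia markers rose in 2 of 10 genes in neocortex, Ctss (0.33) and Trem2 (0.46), and in 5 of 10 in CA1, among them Trem2 (1.02, edgeR adjusted p = 0.000157), Ctss (0.76) and Fcrls (0.72). Of all genes tested 1.51% rose in neocortex and 2.47% in CA1. The microglia markers did not move as 1 in neocortex: 6 of 10 were above 0, the lowest stood at -0.35, and DESeq2 called 3 risen and 1 fallen. In CA1 9 of 10 were above 0, the lowest at -0.23. The 10 markers summed to 517.1 to 569.7 CPM in KO neocortex, against 499.1 to 531.4 CPM in control neocortex, and to 438 to 508.1 CPM in KO CA1, against 358.2 to 381.8 CPM in control CA1. In neocortex the call of Ctss was lost without D5129 or D5133 and that of Trem2 without D5129, D5132, D5133 or D5135, and the CA1 calls named here held. Oligodendrocyte markers fell in 9 of 10 genes in CA1, with Cldn11 at -0.59, Ugt8a at -0.68 and Ermn at -0.61 (the last lost without D5130), and in 0 of 10 in neocortex by edgeR or DESeq2, with 1 at an unadjusted p under 0.05. Their sum was 2992 to 3013 CPM in KO CA1, against 3646 to 4421 CPM in control CA1. Meningeal fibroblast markers rose in 3 of 7 genes in CA1. They summed to 192.4 to 224.9 CPM in KO CA1, against 86.8 to 92.8 CPM in control CA1. These markers bear on Sparc, Gjb2 and Fxyd1, and whether they bear on Gja1, Gjb6 or others of the 10 was not tested. In neocortex 0 of 7 rose by edgeR or DESeq2, with 0 at an unadjusted p under 0.05, but 3 of 7 rose without D5135, and the median log2 fold change was 0.597 then, against 0.14 with all libraries. Their sum was 132.2, 102.6 and 122.6 CPM in KO neocortex (D5130, D5132, D5133), against 79.99, 75.78 and 143.1 CPM in control neocortex (D5129, D5134, D5135). Control D5135 was thus the highest library, and the other controls lay below all KO libraries. Oligodendrocyte precursor markers (5 tested), ependymal and choroid markers (6) and dividing cell markers (5) had 0 calls in either tissue by edgeR or DESeq2. In that order, 0, 1 and 2 were above 0 in neocortex (medians -0.17, -0.53 and -0.06), against 50.6% of all genes tested. In CA1 1, 0 and 5 were above 0 (medians -0.12, -0.75 and 0.69), against 49.9%. The median of the dividing cell markers in CA1 was -0.006 without D5133. At an unadjusted p under 0.05 these lists held 2, 2 and 0 genes in neocortex and 2, 3 and 0 in CA1. The shares of all genes tested at that p were 18.0% in neocortex and 17.3% in CA1. Endothelial and pericyte markers rose in 0 of 10 in neocortex by either tool, where 1 had an unadjusted p under 0.05, and in 1 of 10 in CA1. When 1 library was left out, the counts ran from 0 to 3 for the neuron markers and 1 to 2 for the excitatory neuron markers in neocortex, from 1 to 3 for the excitatory neuron markers in CA1, from 0 to 3 and 3 to 5 for the microglia markers in neocortex and CA1, from 2 to 4 for the meningeal markers in CA1, and from 5 to 10 for the oligodendrocyte markers in CA1. The summed level of the 10 homeostatic genes was 4509 to 4883 CPM in KO neocortex, against 4227 to 4636 CPM in control neocortex, with overlapping groups, and 4098 to 4171 CPM in KO CA1, against 3653 to 3902 CPM in control CA1, with groups that did not overlap.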

How the data were processed

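PolyA RNA of the tissues was sequenced, per the labels' protocols from 500 ng of total RNA per library. The authors deposited 1 table of raw counts per gene for all 11 libraries, with 39109 rows, 92 of them ERCC RNAs. The build GRCm38 and the tools GSNAP, SAMtools, bedtools and FastQC are named per the submitters' processing notes. Tool versions, the gene annotation and whether counting used strand are not given in the sources used here. Symbols were matched by Ensembl ID to GENCODE annotation on GRCm38 for 37607 of 39017 genes (96.4%), and starts and ends are given counting from 1.

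ERCC rows were left out of library sizes. Counts were filtered with filterByExpr, scaled by TMM and tested 2-sided with edgeR 4.0.16 (glmQLFit robust, glmQLFTest, R 4.3.3) within each tissue, and across both tissues for the interaction. CPM use TMM-scaled library sizes, and log2 CPM a prior count of 1. Confidence intervals are 95% and come from the fitted model. A call is an adjusted p under 0.05 over all genes tested. DESeq2 1.42.0, RLE scaling, unscaled totals, no filter, 1 fit of all libraries, ERCC-based settings and leaving out each library were tried. The edgeR and DESeq2 tests within each tissue were tried on simulated data, and the fits over both tissues, the interaction included, were not.

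All 10 genes are reported, with up to 3 genes of the smallest p per other list, the other connexins and glutamate transporters listed, and every gene of the wider lists that was called. The genes, the lists and the settings were chosen with earlier results of these data known, and 1 gene is not reported here. The libraries of a group differed by more than sampling noise (chi-square per degree of freedom of 9.99 to 22.1), so none was counted as a repeat of another. The tissues of 1 mouse are paired by the labels' mouse number. Deviations from the group mean correlated between the tissues of the same mouse at 0.293 (D5130), 0.26 (D5133), 0.301 (D5134) and 0.358 (D5135) over 11356 genes.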

Additional observations from a re-analysis of the deposited data

How the results depend on the processing

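The count of called genes among the 10 in neocortex was 0 under every setting tried. In CA1 it was 1 in the fit reported and with RLE scaling, 3 with DESeq2 (Aldoc, Aqp4, Ntsr2), 4 with library totals alone and 4 with no low-count filter (Aldoc, Aqp4, Gja1 and Ntsr2 in both), 0 with all 11 libraries in 1 fit, and between 0 and 1 when 1 library was left out. For the interaction the count was 0 under every setting, also in the paired fit with the mouse as replicate block. The 237 genes called without the filter and 162 with the replicate block compare with 18 in the fit reported, and the block left every other call of the text as it was, since it applies to the interaction alone.

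The median log2 fold change of the 10 genes in CA1 stayed between 0.148 and 0.202. In neocortex it moved to 1.14 with ERCC scaling and to 0.195 within the second ERCC set, and ran from 0.021 to 0.122 when 1 library was left out. Calls in the wider astrocyte list in neocortex were 1 in the fit reported, 4 with DESeq2, 2 with RLE scaling, 3 with library totals, 4 with no filter, 2 with all 11 libraries in 1 fit, 0 with the ERCC set as a term, with ERCC scaling and within either set, and from 0 to 4 with 1 library left out. In CA1 they were 10, with 16 for library totals, 19 with no filter, 14 for DESeq2 and 4 to 13 with 1 library left out. Over all genes, calls in neocortex were 460 in the fit reported, 922 with DESeq2, 770 with no filter, 191 with the ERCC set as a term, 4 with ERCC scaling, 11 and 77 within the sets and 19 to 430 with 1 library left out. In CA1 they were 710, with 1467 for no filter and 232 to 732 with 1 library left out. Library totals moved the CA1 calls to 613 risen and 190 fallen, against 452 and 258.

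Signs changed for values near 0, for some further from 0 (such as Slc1a2, Gjb2 and Gja4 in neocortex) and, under ERCC scaling, for values below 0 in neocortex. Under ERCC scaling, with the median of all genes at 1.06, neocortex values were 0.98 for Aldh1l1, 0.65 for Uchl1, 0.78 for Stmn2, 0.49 for Itpka, 0.63 for Nrgn, 0.97 for Gjb2, 1.01 for Gjb1, 0.64 for Gja5, 0.75 for Gja4, 0.92 for Gjc1, 0.96 for Slc1a6, 0.91 for Slc17a7 and 1.00 for Slc17a6. Within the first ERCC set they were 0.051 for Aldh1l1, -0.016 for Slc1a2, -0.029 for Gja1, -0.019 for Glul, 0.395 for Gjb2, 0.087 for Gjb1, 0.085 for Gja4 and -0.027 for Slc1a5, and within the second set -0.057 for Slc1a4. With the ERCC set as a term they were 0.033 for Gjb2 and 0.018 for Gjb1. With 1 library left out, neocortex values ran from -0.063 to 0.058 for Aldh1l1, -0.014 to 0.089 for Aldoc, -0.045 to 0.066 for Glul, -0.421 to 0.362 for Gjb2, -0.158 to 0.106 for Gjb1, -0.249 to 0.016 for Gja4, -0.057 to 0.144 for Slc1a4 and -0.063 to 0.191 for Slc1a5. In CA1 they ran from -0.0063 to 0.111 for Aldh1l1, -0.0045 to 0.125 for Slc1a2, -0.0031 to 0.080 for Glul, -0.293 to 0.090 for Gjd2, -0.098 to 0.035 for Slc1a1, -0.064 to 0.108 for Slc1a6 and -0.080 to 0.042 for Slc17a7. With library totals CA1 values were 0.00572 for Slc1a1 and 0.020 for Slc17a7. Outside the 10, the neocortex calls named in the text other than C4b were lost within either ERCC set, where 1 group is a single library, and all were lost with ERCC scaling. The cause of these differences was not tested.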
